A study of Neurospora crassa with 6 samples.

Results

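A pair of cultures of Neurospora crassa that had both received staurosporine, one in medium with 20 mM CaCl2 and one in medium labelled 0 Ca2+, were compared gene by gene. They are 2 of the 6 libraries of the study, with 1 library in each group. Genes were taken if their mean FPKM (fragments per kilobase of transcript, scaled to the fragments mapped in the library) over both libraries was at least 1, which 7598 of the 9691 genes in the tables met and 2093 did not. The smallest mean inside that limit was 1.002 FPKM and the largest outside it was 0.997 FPKM. Each gene's difference is given as log2((FPKM + 1) ratio), positive where the value was higher in 20 mM CaCl2. The addition of 1 understates the differences of low genes.

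Neurospora crassa is a filamentous ascomycete fungus whose asexual spores are called conidia. Wild-type conidia were incubated for 6 h at 26 °C in minimal medium and then grown for 1 h more with staurosporine at 20 µM, and poly(A) RNA was sequenced as single reads of 50 bp. The same media were also given DMSO, the solvent, in place of the drug, and a pair of further cultures used standard minimal medium, whose calcium content the labels do not give. Every culture is wild type, no culture was free of both agents, and the labels name no second culture of any group. With 1 library a side there is no replicate error and no test, so the values below describe 2 libraries, and a gene is called higher or lower only by size, at a log2 ratio of at least 1 in absolute value (a 2-fold difference in FPKM + 1). In bulk RNA, fewer cells of a kind and less RNA in each cell cannot be told apart, and FPKM measures a transcript's part of the sequenced RNA, not its amount.

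Staurosporine is an alkaloid that inhibits many protein kinases and triggers programmed cell death in fungi as in animal cells. Calcium ions enter the fungal cytosol through plasma membrane channels, act through calmodulin and the phosphatase calcineurin, and are removed by pumps and exchangers in the plasma membrane, the vacuole and the secretory pathway. Growing fungal cells spend much of their transcription on ribosomes, which are assembled in the nucleolus from ribosomal RNA and proteins with the help of a large set of assembly factors, while starving or dying cells draw on autophagy, the delivery of cell material to the vacuole.

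Across genes, the staurosporine pair stood far apart. In 20 mM CaCl2, 1561 genes were higher (20.5% of those past the limit) and 1906 were lower (25.1%), together 45.6%. With DMSO in place of the drug, and with no library in common, the same media differed at 332 genes higher (4.63% of 7177) and 254 lower (3.54%), together 8.16%. Differences of at least 8-fold, a log2 ratio of 3, were found at 268 genes higher and 211 lower with staurosporine, against 10 and 7 with DMSO. The 25th and 75th percentiles of the ratios were -1.001 and 0.79 with staurosporine and -0.28 and 0.20 with DMSO, and the medians were -0.11 and -0.04. The log2(FPKM + 1) values of the staurosporine pair correlated at r = 0.731 over 7083 genes and those of the DMSO pair at r = 0.963, a description across genes that share their libraries. Among the genes counted, 197 of those higher had under 1 FPKM in 0 Ca2+ and 433 of those lower had under 1 FPKM in 20 mM CaCl2, so they passed the limit through the library where they were high. A gene symbol or informative product was on record for 59.1% of the genes higher and 45.4% of those lower.

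**Figure D1:**
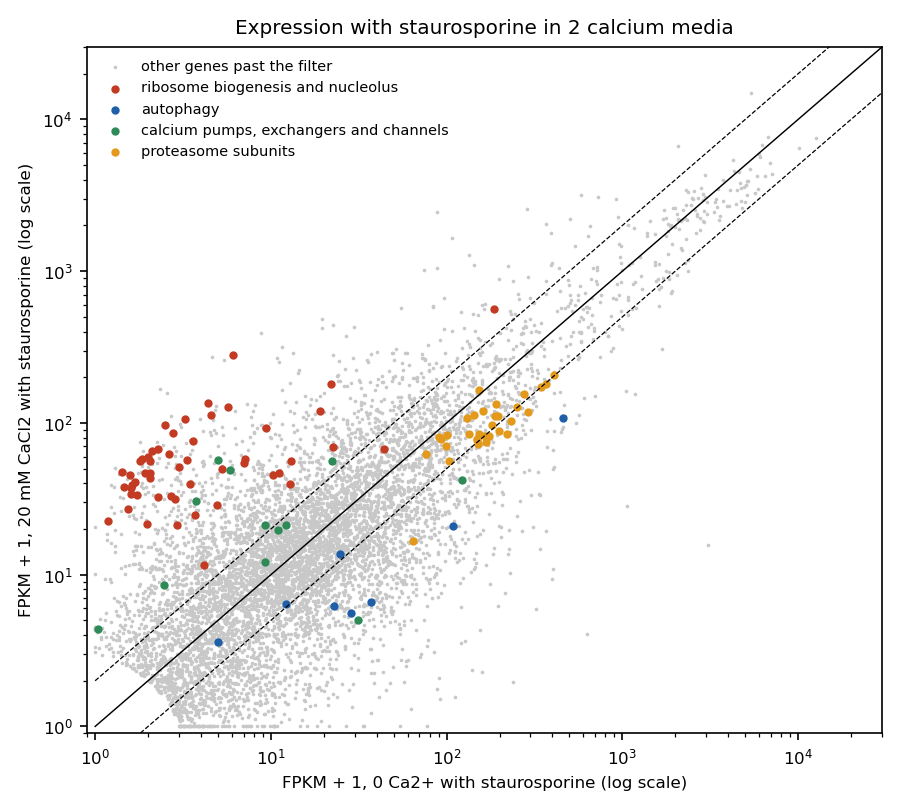
FPKM + 1 of each gene past the limit in 0 Ca2+ medium with staurosporine (x axis, log scale) and in 20 mM CaCl2 medium with staurosporine (y axis, log scale), 1 library each. The solid line marks equal values and the dashed lines a 2-fold difference; the 52 ribosome biogenesis genes (red) lie above the line, 51 of them above the upper dashed line, and the 8 autophagy genes (blue) lie below the line.

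The genes that make ribosomes stood highest of all in 20 mM CaCl2 relative to 0 Ca2+. Of 52 genes annotated as ribosome biogenesis or nucleolar factors, all past the limit, 51 were higher and 0 lower, where 20.5% of all genes were higher, and the median log2 ratio was 4.26 against -0.11 for all genes. With DMSO, 0 of the 52 differed by 2-fold and the median was -0.02. Their median FPKM was 34.6 and 34.9 in the 0 Ca2+ and 20 mM CaCl2 libraries with DMSO, 1.89 and 49.6 in the same media with staurosporine, and 43.3 and 13.1 in standard medium with DMSO and staurosporine. The 0 Ca2+ library with staurosporine was thus the low one of the 6, the standard medium with staurosporine came next, and the 20 mM CaCl2 library with staurosporine was above all 3 DMSO libraries.

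Single members showed the same order of libraries. NCU03396, nop-58, a core protein of the box C/D small nucleolar particles that guide methylation of ribosomal RNA, had 5.11 FPKM in 0 Ca2+ and 280 FPKM in 20 mM CaCl2 with staurosporine, a log2 ratio of 5.53. Its values were 63.2 FPKM in standard medium with staurosporine and 178, 227 and 183 FPKM in the 0 Ca2+, standard and 20 mM CaCl2 libraries with DMSO. The 20 mM CaCl2 library was the highest of the 6 and the 0 Ca2+ library with staurosporine the lowest.

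NCU02546, nucleolar GTP-binding protein 2, needed in yeast for maturation of the large ribosomal subunit, had 1.497 and 96.3 FPKM in 0 Ca2+ and 20 mM CaCl2 with staurosporine (log2 ratio 5.28) and 56.5 and 61.1 FPKM with DMSO. NCU06272, the rRNA biogenesis protein RRP5, which acts in both subunits' assembly in yeast, had 0.430 and 46.5 FPKM (5.05), and NCU08121, annotated only as a ribosome biogenesis protein, had 2.25 and 106 FPKM (5.04). Further genes among the 15 highest belong to the same work although their product names kept them out of that list. Pescadillo (NCU00925), a large-subunit assembly factor, had 2.30 and 109 FPKM, a log2 ratio of 5.06. The dimethyladenosine transferase gene NCU08968, whose yeast counterpart methylates the small-subunit rRNA, had 0.362 and 44.9 FPKM (5.08), and ribosomal RNA-processing protein 12 (NCU01675) had 1.25 and 74.2 FPKM (5.06). The FK506-binding protein gene fkr-4 had 4.42 and 259 FPKM (5.58), against 162 and 188 FPKM with DMSO.

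RNA helicases, which unwind RNA during ribosome assembly, splicing and translation, stood mostly higher. Of 36 genes, 33 passed the limit, 20 were higher and 1 lower, and the median was 2.69. Among the 8 helicases named dbp, most of which serve ribosome assembly in yeast, 7 were higher and the median was 4.10, and among the other 25 past the limit 13 were higher and 1 lower, with a median of 1.26; this division follows the gene names, and the difference was not tested. The helicase gene dbp-2 (NCU07839) had 3.65 and 272 FPKM in 0 Ca2+ and 20 mM CaCl2 with staurosporine (5.88), against 161 and 179 FPKM with DMSO. NCU01369, ded-1, a helicase of translation initiation, had 7.74 and 391 FPKM (5.49), NCU09349, has-1, had 1.70 and 85.4 FPKM (5.0004), and NCU07712, dbp-10, had 0.287 and 36.98 FPKM (4.88).

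The polymerases that transcribe ribosomal RNA and transfer RNA followed. All 11 genes annotated to RNA polymerase I or III had a positive ratio, 9 were higher by 2-fold and the median was 2.32, with -0.03 for DMSO. The 6 genes of RNA polymerase I, which makes the large rRNA precursor, including subunits it shares with polymerase III, had a median of 4.04, and the 5 annotated to RNA polymerase III, which makes 5S rRNA and tRNA, had 2.20. The largest polymerase I subunit, RPA1 (NCU01638), had 1.30 and 57.4 FPKM (4.66), RPA2 (un-18, NCU08616) had 1.86 and 59.5 FPKM (4.40), NCU02533, shared by both polymerases, had 3.88 and 85.0 FPKM (4.14) and NCU05251 had 2.04 and 45.7 FPKM (3.94). The gene SEN2 (NCU01115), for a subunit of the endonuclease that splices tRNA, had 0.298 and 49.4 FPKM (5.28).

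Nuclear transport genes were less uniform. Of 13, 6 were higher and 0 lower, with a median of 0.91. The highest ratio of any gene in the comparison belonged to one of them, the karyopherin gene Kap123 (NCU05650), an importin that carries ribosomal proteins into the nucleus in yeast. It had 1.33 and 167 FPKM in 0 Ca2+ and 20 mM CaCl2 with staurosporine (6.18), 21.8 FPKM in standard medium with staurosporine, and 77.0, 67.9 and 77.5 FPKM in the 0 Ca2+, standard and 20 mM CaCl2 libraries with DMSO. The importin beta-2 gene NCU03690 had 8.45 and 45.3 FPKM (2.29) and exportin-T (NCU00134), which exports tRNA, had 6.80 and 33.3 FPKM (2.14). Importin beta-3 (NCU02357) had 27.0 and 90.1 FPKM (1.70).

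The ribosomal proteins themselves, unlike the factors that assemble them, were close to equal in the 2 libraries. The 50 cytosolic large-subunit genes had a median log2 ratio of -0.02 with 5 higher and 0 lower, and the 28 small-subunit genes had a median of -0.18 with 0 higher and 1 lower; both medians turned positive, at 0.37 and 0.22, when the trend with gene length described further on was removed, and the large-subunit one also under other scalings (0.02 centred, 0.04 rescaled). Their median FPKM with staurosporine was 2398 in 0 Ca2+ and 2445 in 20 mM CaCl2 for the large subunit and 2706 and 2901 for the small one. Standard medium with staurosporine lay below both, at 868 and 1113 FPKM, and the 6 DMSO medians ran from 4065 to 4774 FPKM. The order of libraries was therefore a different one from that of the assembly factors, with the standard medium lowest.

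The largest ratios among the ribosomal protein genes were those of NCU07547, annotated as 60S acidic ribosomal protein P0, with 3.83 and 121 FPKM (4.66), and of L20 (NCU04225), with 22.6 and 108 FPKM (2.20). L30 (NCU08963) had 499 and 2192 FPKM (2.13) and L3 (NCU08299) had 18.8 and 80.2 FPKM (2.04). P0, L20 and L3 had at most 106 FPKM in every DMSO library, far under the list's median. In the small subunit, S8 (NCU02951) had 58.8 and 107 FPKM (0.85), S22 (NCU06431) had 5940 and 3467 FPKM (-0.78), S12 (NCU06432) had 4708 and 2903 FPKM (-0.70) and S30 (NCU06048) had 567 and 269.7 FPKM (-1.07). The ratio of S30 was 0.08 with the length trend removed.

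Translation factors stood mostly higher in 20 mM CaCl2. Of 42 genes, 25 were higher and 3 lower, and the median was 1.43 against -0.09 with DMSO. The 11 subunits of eIF3, the complex that brings mRNA to the small ribosomal subunit, had a median of 1.99 with 10 higher and 0 lower, and their median FPKM was 54.5 in 0 Ca2+ and 218 in 20 mM CaCl2 with staurosporine. Elongation factor 3, an ATPase of fungal ribosomes, is annotated at 2 loci. NCU09903 had 0.879 and 64.1 FPKM (5.11), and NCU07922 had 87.3 and 1053 FPKM (3.58), against 894 and 797 FPKM with DMSO. Initiation factor 4B (NCU00457) had 28.2 and 268 FPKM (3.20), and 4E (NCU02076), which binds the mRNA cap, had 23.1 and 207 FPKM (3.11).

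Mitochondrial ribosomal proteins had a median of 0.67, or 1.12 with the length trend removed. Of 21, 7 were higher (33.3%, against 20.5% of all genes) and 0 lower (against 25.1%). Among them L12 (NCU06469) had 65.5 and 198 FPKM (1.58), DAP3 (NCU08120) had 30.6 and 90.8 FPKM (1.54), L23 (NCU08329) had 31.1 and 87.3 FPKM (1.46) and S4 (NCU10311) had 23.8 and 62.1 FPKM (1.35). The 37 aminoacyl-tRNA synthetases, which charge tRNA with amino acids, had a median of -0.20. Among them 6 were higher (16.2%) and 10 lower (27.0%), near the shares of all genes. Lysyl-tRNA synthetase (NCU00931) had 1.39 and 41.4 FPKM (4.15) and the mitochondrial tyrosyl enzyme gene cyt-18, which also helps group I introns splice, had 3.96 and 44.9 FPKM (3.21). Asparaginyl-tRNA synthetase (NCU06866) had 1.31 and 12.7 FPKM (2.57), while glutaminyl-tRNA synthetase (NCU07926) had 177 and 33.7 FPKM (-2.36).

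Heat shock proteins and chaperones, which fold proteins, had a median of 0.59, with 23 of 65 higher and 6 lower. All 4 Hsp70 genes with a symbol were higher, with a median of 2.59. The gene hsp70-2 had 87.1 FPKM in 0 Ca2+, 527 FPKM in standard medium and 2464 FPKM in 20 mM CaCl2 with staurosporine, against 2550, 2579 and 2441 FPKM with DMSO, a log2 ratio of 4.81 for the staurosporine pair and -0.06 for the DMSO pair. The gene hsp70-1 had 133 and 1278 FPKM (3.26), the DnaJ family gene NCU07414, a co-chaperone, had 17.1 and 140.3 FPKM (2.96) and the dnaK chaperone gene NCU00692 had 19.0 and 116 FPKM (2.55). The 8 subunits of the T-complex chaperonin, which folds actin and tubulin, had a median of 0.62, with 1 higher.

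**Figure D2:**
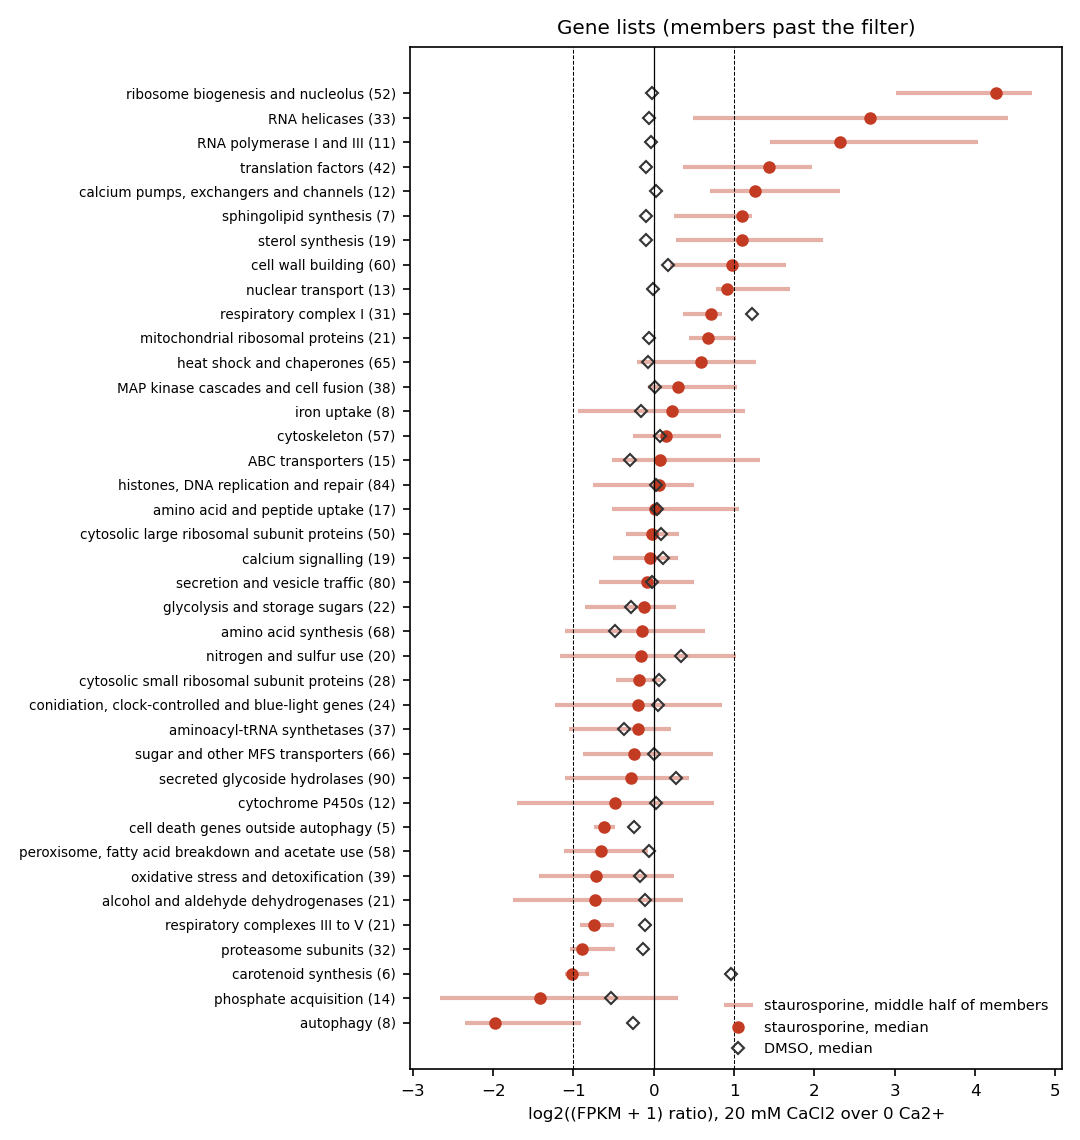
Median log2((FPKM + 1) ratio) of 20 mM CaCl2 over 0 Ca2+ for each of the 39 gene lists (number of members past the limit in brackets), with staurosporine (red circles, bars from the 25th to the 75th percentile of the members) and with DMSO (open diamonds). With staurosporine 7 medians were at 1 or above and 3 at -1 or below, and with DMSO 1 median, that of respiratory complex I, lay beyond 1.

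Autophagy genes stood on the other side. Of 8 genes with an autophagy product or symbol, 0 were higher and 5 were lower in 20 mM CaCl2, where 25.1% of all genes were lower, all 8 ratios were negative and the median was -1.98, with -0.25 for DMSO. Their median FPKM was 25.7 in 0 Ca2+, 15.4 in standard medium and 5.50 in 20 mM CaCl2 with staurosporine, and 12.8, 8.68 and 9.75 with DMSO, so 0 Ca2+ with staurosporine was the highest library and 20 mM CaCl2 with staurosporine the lowest. The gene atg-8, whose product is joined to lipid on the growing autophagosome, had 457 FPKM in 0 Ca2+, 413 FPKM in standard medium and 108 FPKM in 20 mM CaCl2 with staurosporine, a log2 ratio of -2.08, and 235, 172 and 187 FPKM with DMSO.

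The kinase gene apg-1, annotated as ATG1, the starter of autophagy in yeast, had 27.5 and 4.62 FPKM (-2.34). NCU06672, annotated as the activating enzyme ApgG of the autophagy conjugation pathway, had 36.1 and 5.57 FPKM (-2.50), and NCU01955 (Aut1), a conjugating enzyme of the same pathway in yeast, had 107 and 19.8 FPKM (-2.38). Of 9 other genes named for cell death, 5 passed the limit, with 0 higher, 1 lower and a median of -0.62. The one beyond 2-fold, the Bax inhibitor family gene NCU02463, from a family of membrane proteins that counter cell death in animals, had 77.9 FPKM in 0 Ca2+ and 16.8 FPKM in 20 mM CaCl2 (-2.15), and the other Bax inhibitor family gene, NCU10028, had 377 and 226 FPKM (-0.74). Metacaspase-1A (NCU09882), a caspase-like protease, had 26.0 and 40.6 FPKM (0.62), and het-c, a heterokaryon incompatibility gene, had 29.9 and 19.2 FPKM (-0.62).

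Proteasome subunits, which degrade ubiquitin-tagged proteins, stood mostly below equality, within 2-fold. Of 32 subunits 31 had a negative ratio, 10 were lower by 2-fold (31.25%, against 25.1% of all genes) and 0 were higher. The median was -0.89, or -0.57 with the length trend removed, against -0.14 with DMSO. Their median FPKM was 163 in 0 Ca2+, 185 in standard medium and 85.6 in 20 mM CaCl2 with staurosporine, and 124 to 139 with DMSO. The lid subunit gene rpn-8 had 221 and 83.0 FPKM (-1.40), the core subunit genes pca-2 and pcb-7 had 288 and 117 FPKM (-1.29) and 198 and 87.0 FPKM (-1.18), and NCU11053, regulatory subunit 9, had 63.4 and 15.7 FPKM (-1.95).

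In the mitochondrial respiratory chain, the medians differed in sign between complexes. Complex I, the NADH dehydrogenase, had a median log2 ratio of 0.71 with 5 of 31 genes higher (16.1%, below the 20.5% of all genes) and 1 lower. Complexes III to V had a median of -0.75, or -0.37 with the length trend removed, with 0 of 21 higher and 5 lower (23.8%, near the 25.1% of all genes). With DMSO the complex I median was 1.22, with 23 genes higher, so this list differed between the media without the drug as well. Its median FPKM was 74.6, 82.7 and 118 in 0 Ca2+, standard and 20 mM CaCl2 medium with staurosporine and 93.4, 108 and 207 with DMSO. The gene nuo78, for the largest subunit, had 21.9 and 105 FPKM with staurosporine (2.21) and 51.1 and 130.3 FPKM with DMSO (1.33), and nuo51, which binds NADH, had 33.6 and 118 FPKM (1.78) and 66.7 and 211 FPKM with DMSO (1.65).

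NCU11348, the B18 subunit, had 82.1 and 188 FPKM (1.19), while NCU07783, annotated as a complex 1/LYR protein, went the other way with 50.1 and 8.90 FPKM (-2.37). The 11 ATP synthase genes, which make ATP from the proton gradient, had a median of -0.76, and their median FPKM was 1693, 562 and 883 in 0 Ca2+, standard and 20 mM CaCl2 medium with staurosporine and 1513 to 1552 with DMSO. The standard medium was the lowest library there, as for the ribosomal proteins. Subunits 5 (NCU01606), H (NCU03199) and delta (NCU00385) had ratios of -1.09, -1.13 and -1.06, and the cytochrome c oxidase gene cox-4 had 955 and 432 FPKM (-1.14).

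Calcium transport genes, which include exporters and entry channels, stood mostly higher in 20 mM CaCl2, and some of them also did so without the drug. Of 12 pumps, exchangers and channels 7 were higher and 2 lower, with a median of 1.27, against 3 higher and 2 lower and a median of 0.02 with DMSO. The list's call is close to the size limit, since its median was 0.83 with a pseudocount of 5. The Ca2+ pump gene nca-2, whose product exports calcium from the cytosol, had 4.03 FPKM in 0 Ca2+ and 55.6 FPKM in 20 mM CaCl2 with staurosporine (3.49), and 9.53 and 32.0 FPKM with DMSO (1.65). In standard medium it had 103 FPKM with staurosporine and 26.7 FPKM with DMSO, so its highest library was standard medium with the drug.

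The vacuolar calcium/proton exchanger gene cax had 4.87 and 47.6 FPKM with staurosporine (3.05) and 3.80 and 25.5 FPKM with DMSO (2.46), and 37.9 and 12.4 FPKM in standard medium. NCU07711, a second vacuolar calcium exchanger by product, had 2.73 and 29.4 FPKM (3.03), with 10.6 and 24.4 FPKM for DMSO (1.13). The Ca2+ ATPase genes nca-1 and nca-3 had 21.3 and 55.4 FPKM (1.34) and 0.0333 and 3.38 FPKM (2.08), nca-3 being near the low limit. The antiporter gene NCU06366 had 8.24 and 20.2 FPKM (1.20). The 0 Ca2+ library with staurosporine was the lowest of the 6 for nca-1, nca-2, nca-3, NCU06366 and NCU07711, and cax was lowest in 0 Ca2+ with DMSO.

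The Cch1 subunit gene of the plasma membrane calcium channel (smco-1), through which calcium enters, had 1.46 and 7.51 FPKM with staurosporine (1.79) and 4.40 and 3.80 FPKM with DMSO (-0.17). The 2 genes on the other side carry a calcium ATPase product but include ena-1, known in this fungus as a sodium pump gene. It had 121 and 41.3 FPKM with staurosporine (-1.53) and 119 and 14.5 FPKM with DMSO (-2.95), and NCU07966, with the same product, had 30.2 and 4.01 FPKM (-2.64) and 35.1 and 1.18 FPKM with DMSO (-4.05). The remaining genes of the list, pmr-1, mid-1 and NCU05360, had ratios of 0.81, 0.84 and 0.38.

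Calcium signalling genes were not displaced as a list, with a median of -0.05. Of 19, 4 were higher (21.1%, near the 20.5% of all genes) and 2 lower (10.5%, against 25.1%). Both calcineurin genes were among the higher ones. The regulatory subunit gene cnb-1 had 48.4 and 121 FPKM with staurosporine (1.31) and 155 and 173 FPKM with DMSO, and NCU03804, protein phosphatase 2B, the catalytic subunit, had 31.4 and 86.3 FPKM (1.43) and 78.8 and 94.98 FPKM with DMSO. Standard medium with staurosporine was near the 20 mM CaCl2 library for both, at 129 and 86.4 FPKM. The phospholipase C genes NCU02175 and NCU01266, of a family that releases inositol trisphosphate, had 2.22 and 14.6 FPKM (2.28) and 0.909 and 3.16 FPKM (1.12). Calmodulin (cmd) had 469 and 570 FPKM (0.28), a further gene annotated as calmodulin, NCU00171, had 43.2 and 14.5 FPKM (-1.52), and the EF-hand gene NCU06948 had 48.3 and 21.9 FPKM (-1.11).

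**Figure D3:**
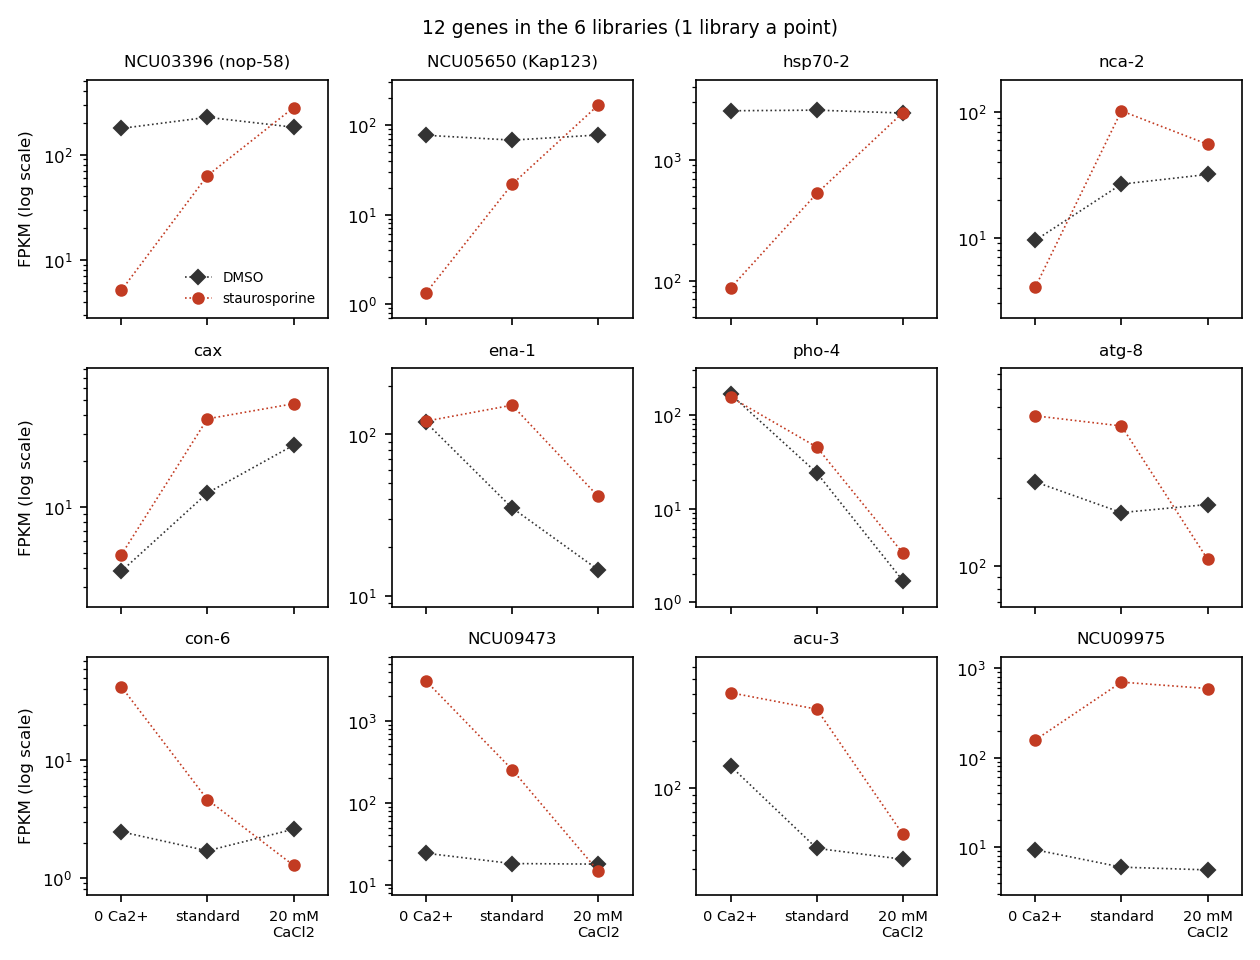
FPKM (log scale) of 12 genes named in the text in each of the 6 libraries, with DMSO (black diamonds) and staurosporine (red circles) in 0 Ca2+, standard and 20 mM CaCl2 medium, 1 library a point. Standard medium is placed in the middle for display, since the labels do not give its calcium content; nop-58, Kap123 and hsp70-2 are low in 0 Ca2+ with staurosporine, and NCU09473 and con-6 are high there.

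Phosphate acquisition genes, which fungi turn on when phosphate is scarce, had negative medians in both pairs. Of 14 genes past the limit 8 were lower and 1 higher with staurosporine (median -1.42), and 5 were lower and 0 higher with DMSO (median -0.54). The phosphate permease gene pho-4 had 154 FPKM in 0 Ca2+, 45.3 FPKM in standard medium and 3.35 FPKM in 20 mM CaCl2 with staurosporine (-5.16), and 166, 24.1 and 1.70 FPKM with DMSO (-5.95). Its order of media was the same with and without the drug. The transporter gene pho-5 had 20.7 and 1.44 FPKM with staurosporine (-3.15) and 62.4 and 0.524 FPKM with DMSO (-5.38). NCU10038, a glycerophosphoryl diester phosphodiesterase that frees phosphate from phospholipid breakdown products, had 120.1 and 2.54 FPKM (-5.10) and 16.9 and 2.87 FPKM with DMSO (-2.21). The MFS phosphate transporter gene NCU07375 was the exception, with 2.47 and 76.5 FPKM (4.48) and 102 and 44.4 FPKM with DMSO (-1.19).

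Breakdown of fatty acids and growth on acetate were represented by 58 genes past the limit. Of these 1 was higher (1.72%, against 20.5% of all genes) and 19 lower (32.8%, against 25.1%). The median was -0.66, or -0.45 with the length trend removed, against -0.06 with DMSO. The 20 pex genes, which build peroxisomes, had a median of -0.34 with 3 lower, and belong to the same list. Isocitrate lyase (acu-3), the first enzyme of the glyoxylate cycle, had 408 and 50.3 FPKM with staurosporine (-2.99) and 138 and 34.8 FPKM with DMSO (-1.96). The acyl-CoA dehydrogenase gene acd-2 had 293 and 47.9 FPKM (-2.59), a thiolase gene (NCU05558) had 80.1 and 16.4 FPKM (-2.22), and the peroxisomal copper amine oxidase gene NCU05518 had 139 and 1.37 FPKM (-5.88), with 4.61 and 3.97 FPKM for DMSO.

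Alcohol and aldehyde dehydrogenases had a median of -0.73, with 3 of 21 higher and 9 lower. Alcohol dehydrogenase I (adh-1) had 74.0 and 6.47 FPKM (-3.33) and 72.6 and 32.2 FPKM with DMSO (-1.15). The aldehyde dehydrogenase gene NCU00378 had 153 and 17.4 FPKM (-3.07), the alcohol dehydrogenase gene NCU09035 had 16.9 and 1.43 FPKM (-2.89), and the betaine aldehyde dehydrogenase gene NCU00715 had 22.5 and 1.77 FPKM (-3.09) but 2.36 and 5.86 FPKM with DMSO (1.03). Genes against oxidants and toxic compounds had a median of -0.72, with 5 of 39 higher and 15 lower, and -0.21 with the length trend removed. Of the 8 glutathione transferases, which attach glutathione to foreign compounds, 5 were lower and 1 higher. Catalase-1 (cat-1), which destroys hydrogen peroxide, had 69.1 and 11.2 FPKM (-2.52), with 10.6 and 2.55 FPKM for DMSO, and cat-2 had 9.93 and 1.64 FPKM (-2.05). NCU11395, a glutathione-dependent formaldehyde dehydrogenase by product, had 43.0 and 3.61 FPKM (-3.26), and glutathione transferase omega-1 (NCU00549) had 39.1 and 7.11 FPKM (-2.31).

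Glycolysis and storage sugar genes had a median of -0.12 with 1 of 22 higher and 5 lower (22.7%, near the 25.1% of all genes). Glycogen phosphorylase (NCU07027), which mobilises glycogen, had 63.0 and 6.68 FPKM (-3.06), a fructose-bisphosphate aldolase gene (NCU04401) had 12.96 and 0.903 FPKM (-2.87), and hexokinase-2 (NCU06996) had 11.1 and 2.86 FPKM (-1.64), while trehalose phosphate synthase (NCU00793) had 17.0 and 55.1 FPKM (1.64). Amino acid synthesis had 13 of 68 higher (19.1%) and 19 lower (27.9%), near the 20.5% and 25.1% of all genes. Its median was -0.15, or 0.06 with the length trend removed. 3 sulfur genes led the higher side. Cystathionine gamma-lyase (cys-16) had 6.89 and 73.2 FPKM (3.23), sulfate adenylyltransferase (cys-11) had 83.1 and 580.5 FPKM (2.79) and sulfite reductase (cys-2) had 31.3 and 184 FPKM (2.52), while arg-12, an ornithine carbamoyltransferase gene of arginine synthesis, had 275 and 46.4 FPKM (-2.54).

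Cell wall building genes had 30 of 60 higher and 7 lower, with a median of 0.98 (0.18 with DMSO). The 18 genes for mannosyltransferases and mannan polymerase, which decorate wall proteins with mannose, had a median of 1.25 with 12 higher and 1 lower. Of 7 chitin synthases, 4 were higher and 1 lower. Among all genes past the limit, 20.5% were higher and 25.1% lower. Wall proteins divided by type. The 11 anchored cell wall protein genes (acw) had a median of 1.04 with 6 higher and 0 lower, and the 6 non-anchored ones (ncw) had a median of -0.81 with 1 higher and 3 lower. The genes acw-6, acw-10 and acw-12 had 14.6 and 149 FPKM (3.26), 11.9 and 118 FPKM (3.21) and 3.20 and 32.4 FPKM (2.99), while ncw-3 had 79.0 and 7.01 FPKM (-3.32). With DMSO, acw-10, acw-12 and ncw-3 differed in the same directions, by 1.89, 2.25 and -2.86.

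Sterol synthesis, which makes ergosterol for fungal membranes, had 11 of 19 genes higher and 0 lower with a median of 1.09, against -0.10 with DMSO. Cytochrome P450 61 (NCU05278), an enzyme of the last steps, had 23.8 and 188 FPKM (2.93), the sterol reductase gene NCU01333 had 13.7 and 77.4 FPKM (2.42), lathosterol oxidase (NCU04983) had 8.12 and 39.95 FPKM (2.17) and the isomerase gene erg-1 had 196 and 885 FPKM (2.17). In standard medium with staurosporine the list's median FPKM was 79.8, near the 84.1 of 20 mM CaCl2 and above the 41.8 of 0 Ca2+. The 7 sphingolipid genes had 4 higher and a median of 1.104, which was 0.78 with a pseudocount of 5. Both serine palmitoyltransferase subunits, which start sphingolipid synthesis, were higher, NCU06870 with 22.1 and 60.3 FPKM (1.41) and NCU00447 with 24.6 and 62.4 FPKM (1.31), followed by NCU03492, a ceramide hydroxylase gene (1.13), and NCU01116, ceramide glucosyltransferase (1.104).

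Secreted glycoside hydrolases, which cut plant and fungal wall sugars, had a median of -0.28 with 10 of 90 higher (11.1%) and 23 lower (25.6%). Among all genes past the limit 20.5% were higher and 25.1% lower, so the share lower was near that of all genes. The list's median was 0.02 among members with a mean of at least 10 FPKM. The glucanase gene NCU07523 had 7.50 and 55.1 FPKM (2.72), with 9.23 and 46.4 FPKM for DMSO (2.21). NCU09682 had 63.9 and 8.30 FPKM (-2.80), endoglucanase IV (NCU07898) had 17.5 and 1.77 FPKM (-2.74) and the xylanase gene gh10-2 had 6.38 and 0.150 FPKM (-2.68). Secretion and vesicle traffic had a median of -0.08, with 10 of 80 higher and 11 lower. Clathrin heavy chain (NCU02510), the coat of endocytic vesicles, had 22.5 and 80.5 FPKM (1.79), while the exocytosis gene NCU09432, the SNARE gene NCU01199 and the vacuolar sorting gene NCU11209 had ratios of -2.39, -2.38 and -2.30. The cytoskeleton list had a median of 0.15 with 12 of 57 higher and 3 lower, led by an actin-binding protein gene (NCU04647, 8.04 and 91.6 FPKM, 3.36), a septin gene (NCU01998, 3.27) and the kinesin genes NCU06832 (3.19) and NCU02626 (1.59).

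Uptake genes differed one by one. The neutral amino acid permease gene mtr had 13.3 and 211 FPKM (3.89), against 232 and 246 FPKM with DMSO, NCU05776 had 22.9 and 204 FPKM (3.10) and a peptide transporter gene (NCU08738) had 0.893 and 27.5 FPKM (3.91), while the permease gene NCU04435 had 9.11 and 0.638 FPKM (-2.63). The list they belong to had 5 of 17 higher (29.4%, against 20.5% of all genes) and 3 lower (17.6%, against 25.1%). Nitrogen and sulfur genes had 5 of 20 higher (25%) and 6 lower (30%), not far from the shares of all genes. A urea transporter gene (NCU01977) had 25.6 and 376 FPKM (3.82), a sulfate permease gene (NCU03235) had 2.48 and 29.98 FPKM (3.15), the urease accessory gene NCU01511 had 116 and 11.5 FPKM (-3.22), and the nitrate transporter gene nit-10 had 84.2 and 8.69 FPKM (-3.14) but 16.5 and 38.8 FPKM with DMSO (1.19).

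The list of sugar and other major facilitator (MFS) transporters had 15 of 66 higher (22.7%) and 14 lower (21.2%), near the 20.5% and 25.1% of all genes. The sugar transporter gene NCU00821 had 5.24 and 91.9 FPKM (3.90), the glucose transporter-like gene hgt-1 had 20.8 and 183 FPKM (3.08), NCU03107 had 58.1 and 7.70 FPKM (-2.76), and HXT13 (NCU01633) had 54.2 and 568 FPKM (3.36) but 1062 and 403 FPKM with DMSO (-1.40). Iron uptake had 3 of 8 higher and 2 lower, from a siderophore transporter gene (NCU06132) at 3.08 and a ferric reductase gene (NCU00023) at 1.33 to NCU07564 at -1.50 and the siderophore synthesis gene NCU08167 at -1.70. Such lists had members on both sides and medians between -0.25 and 0.23. Some of these medians changed sign under an alternative. The MFS median was 0.65 among members with a mean of at least 10 FPKM, and the iron median was -0.14 with rescaled FPKM.

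The drug-resistance neighbours NCU09974 and NCU09975, a fungal specific transcription factor and a multidrug resistance protein by product, were at 145 and 405 FPKM (1.48) and at 158 and 593 FPKM (1.90) in 0 Ca2+ and 20 mM CaCl2 with staurosporine. With DMSO NCU09974 had 16.2 and 12.7 FPKM and NCU09975 had 9.31 and 5.55 FPKM. The drug libraries were thus above the DMSO libraries in both media. The ABC transporters, efflux pumps that use ATP, had 5 of 15 higher and 2 lower with a median of 0.08, among them NCU07546 (1.96), NCU10009 (1.90) and NCU06382 (1.37). Of 22 cytochrome P450 genes 12 passed the limit, with 3 higher (25%, against 20.5% of all genes) and 5 lower (41.7%, against 25.1%). Their median was -0.48, but 0.92 with a mean of at least 10 FPKM. Apart from NCU05278 the furthest were NCU08197, NCU05376 and NCU11306, with ratios of -2.41, -2.33 and -2.19. NCU08197 (5.57 and 0.239 FPKM) and NCU11306 (5.95 and 0.527 FPKM) passed the limit through the 0 Ca2+ library.

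MAP kinase and cell fusion genes had a median of 0.30, or 0.13 with the length trend removed. Of 38 genes 10 were higher (26.3%, against 20.5% of all genes) and 3 lower (7.89%, against 25.1%). The transcription factor gene adv-1, required for cell fusion and sexual development, had 23.5 FPKM in 0 Ca2+, 34.0 FPKM in standard medium and 256 FPKM in 20 mM CaCl2 with staurosporine (3.39), and 36.9, 77.5 and 134 FPKM with DMSO (1.83). The scaffold gene ham-5 had 2.76 and 25.5 FPKM (2.82), ham-8 had 54.7 and 193 FPKM (1.80), and hym-1 had 30.5 and 7.42 FPKM (-1.91). DNA replication, repair and histone genes had a median of 0.06, with 5 of 84 higher and 9 lower. Among them were mip-1 (2.21), mus-21 (2.10), DNA polymerase alpha (NCU07870, 1.90) and mus-8 (-1.93).

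Genes of conidia and of conidium formation were checked as markers of the spores the cultures started from. The conidiation genes con-6, con-8 and con-10 were at 42.2, 10.3 and 35.1 FPKM in 0 Ca2+ with staurosporine and at 1.28, 0.972 and 4.03 FPKM in 20 mM CaCl2 with staurosporine, with log2 ratios of -4.25, -2.52 and -2.84. In the DMSO libraries con-6 was at 2.47 FPKM in 0 Ca2+ and 2.59 FPKM in 20 mM CaCl2, and con-13 was below the limit. The hydrophobin gene eas, whose product coats conidia, went the other way, with 7.95 and 52.2 FPKM (2.57), and 2.10 and 69.7 FPKM with DMSO (4.51), and the regulator gene fl was at 2.60 and 1.98 FPKM (-0.27). The markers therefore did not move together, and the part of residual or new conidia in the other results was not tested. The list of conidiation, clock-controlled and blue-light genes had 6 of 24 higher (25%) and 7 lower (29.2%), against 20.5% and 25.1% of all genes. Its lowest member, the blue-light gene bli-3, had 339.8 and 13.9 FPKM (-4.52).

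Carotenoid synthesis, which gives Neurospora its orange colour, had 1 of 6 genes higher and 4 lower with a median of -1.02, whereas with DMSO 2 were higher, 0 lower and the median was 0.96. The median with staurosporine missed 1 in absolute value under several scalings. The carotenoid oxygenase gene cao-2 had 65.5 and 17.7 FPKM with staurosporine (-1.83) and 22.7 and 44.4 FPKM with DMSO (0.94), and cao-1, of the same family, had 2.18 and 12.8 FPKM (2.12) and 2.66 and 6.25 FPKM with DMSO (0.99). The genes ylo-1 and al-3 had ratios of -1.13 and -1.04 with staurosporine and 0.45 and 0.24 with DMSO.

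The 15 named genes with the most negative ratios were high in 0 Ca2+ with staurosporine and above 1 FPKM in 20 mM CaCl2. NCU09473, a 3-ketoacyl-acyl carrier protein reductase by product, had 3086 FPKM in 0 Ca2+, 255 FPKM in standard medium and 14.7 FPKM in 20 mM CaCl2 with staurosporine, the lowest ratio of all at -7.62, and 24.3, 18.1 and 17.9 FPKM with DMSO. The library with 0 Ca2+ and staurosporine stood far above each of the others. NCU12074, a 5-nitroimidazole antibiotic resistance protein by product, had 157 and 1.27 FPKM (-6.13), the acetyltransferase gene NCU04583 had 394 and 8.42 FPKM (-5.39) and the O-methyltransferase gene NCU02328 had 403 and 9.92 FPKM (-5.21).

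Agmatinase (NCU11320), which releases putrescine and urea from agmatine, had 126 and 2.65 FPKM (-5.12), Nce102 (NCU04639), an eisosome protein of the yeast plasma membrane, had 214 and 6.52 FPKM (-4.84), and NCU03682 had 84.2 and 2.11 FPKM (-4.78). The NmrA family gene NCU09403 had 76.5 and 2.38 FPKM (-4.52), the phosphoglycerate mutase gene NCU04016 had 228 and 9.23 FPKM (-4.49), the reductase gene NCU08943 had 174 and 7.70 FPKM (-4.33) and the aminotransferase gene NCU11365 had 119.7 and 5.09 FPKM (-4.31). With DMSO, NCU04016 and NCU11365 were also lower in 20 mM CaCl2, with ratios of -1.33 and -1.70, and NCU04639 and NCU09403 had ratios of -0.65 and -0.32.

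Among genes with no symbol or informative product, NCU00149 had 630.5 and 3.08 FPKM (-7.28) and NCU12134 had 239 and 0.956 FPKM (-6.94), and NCU01946 had 75.9 FPKM in 0 Ca2+ and was listed at 0 in 20 mM CaCl2. On the other side NCU08518 had 0.811 and 73.8 FPKM (5.37) and NCU01257 had 1.70 and 110.3 FPKM (5.36). The joined ID NCU12021,NCU12022, which covers a pair of loci, had 1.57 and 156 FPKM (5.93), and with DMSO 39.1 and 222 FPKM (2.48). The mitochondrial carrier gene RIM2 (NCU01916), known in yeast for pyrimidine nucleotides, had 0.230 and 38.0 FPKM (4.99) and completes the 15 highest named genes.

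The comparison was then set beside the same media with DMSO, gene by gene. Across the 7083 genes past the limit in both pairs the log2 ratios correlated at r = 0.235 (Spearman 0.186), a description across genes without a p. Of the 1561 genes higher with staurosporine 157 were also higher with DMSO, which is 10.1% of the former and 47.3% of the 332 genes higher with DMSO. Of the 1906 lower ones 143 were also lower with DMSO, 7.50% of the former and 56.3% of the latter. Among all genes past the limit of each pair, 20.5% were higher and 25.1% lower with staurosporine, and 4.63% and 3.54% with DMSO. Opposite calls were made at 78 genes. Same-direction calls thus outnumbered opposite ones, 300 to 78, and the difference between the ratios of single libraries was not tested.

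**Figure D4:**
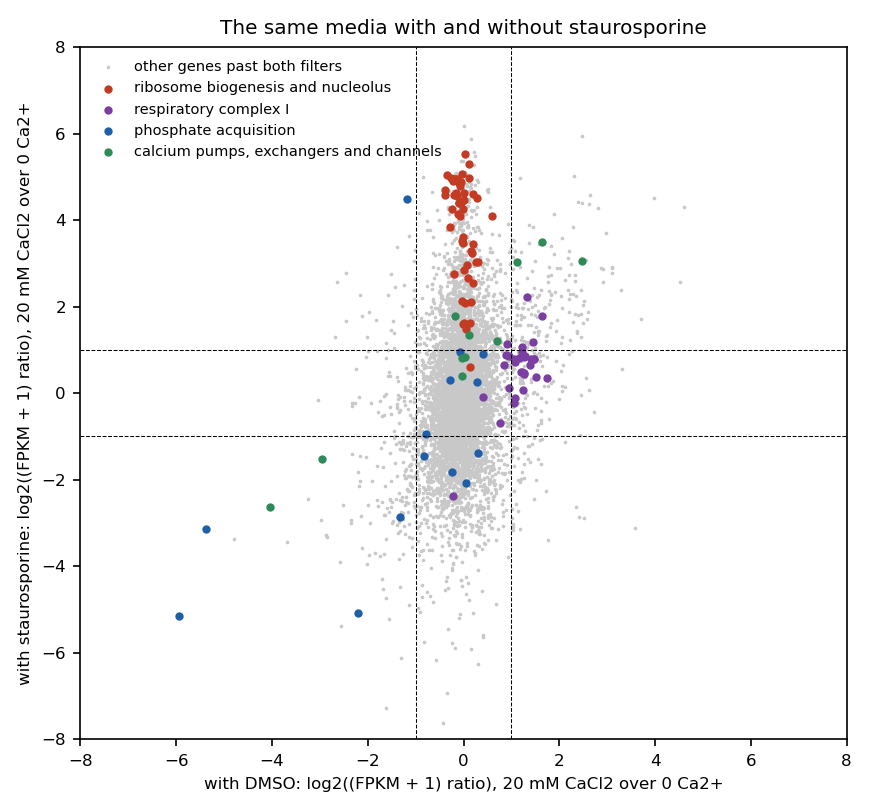
log2((FPKM + 1) ratio) of 20 mM CaCl2 over 0 Ca2+ with DMSO (x axis) and with staurosporine (y axis) for the 7083 genes past the limit in both pairs, dashed lines at 1 and -1. Ribosome biogenesis genes (red) spread along the y axis with x near 0, respiratory complex I genes (purple) lie to the right, and 3 phosphate acquisition genes (blue) lie at or below -2 on both axes.

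Standard medium with staurosporine gave a further library with the drug. For the 1561 genes higher in 20 mM CaCl2, its value lay between the other 2 at 1180 genes (75.6%), above both at 271 and below both at 110, and it was nearer 20 mM CaCl2 at 983 (63.0%). For the 1906 genes lower in 20 mM CaCl2, it lay between at 1499 (78.6%) and was nearer 20 mM CaCl2 at 1217 (63.9%). On the log2(FPKM + 1) scale the median gene of the higher set stood 0.60 of the way from 0 Ca2+ to 20 mM CaCl2, and of the lower set 0.63. Both sets were chosen because the 0 Ca2+ and 20 mM CaCl2 libraries lay apart, which by itself favours a between position for any further library. The share between over all genes was not computed, so these values do not show an order by calcium. The standard library correlated at r = 0.893 with 20 mM CaCl2 and at r = 0.854 with 0 Ca2+. Of the 3 pairs of staurosporine libraries, 0 Ca2+ and 20 mM CaCl2 were thus the least alike (r = 0.731).

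The ratio also followed gene length in this pair. Genes under 800 bp had a median log2 ratio of -1.45 with 110 of 187 lower, and genes of 4000 bp and over had a median of 0.53 with 323 of 1014 higher. The length classes in between had medians in the same order, from -0.83 at 800 to 1200 bp to 0.17 at 3000 to 4000 bp. With DMSO the medians of the 7 classes ran from -0.05 to 0.04. Lengths are those of the RefSeq gene table, known for 7234 genes past the limit (95.2%), and the correlation across genes with log2 length was 0.288 with staurosporine and -0.03 with DMSO. The part of length in the differences between gene lists was not tested. With the trend removed, the median ratio of the ribosome biogenesis list went from 4.26 to 4.18 and that of autophagy from -1.98 to -1.59, while complexes III to V went from -0.75 to -0.37 and oxidative stress and detoxification from -0.72 to -0.21.

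**Figure D5:**
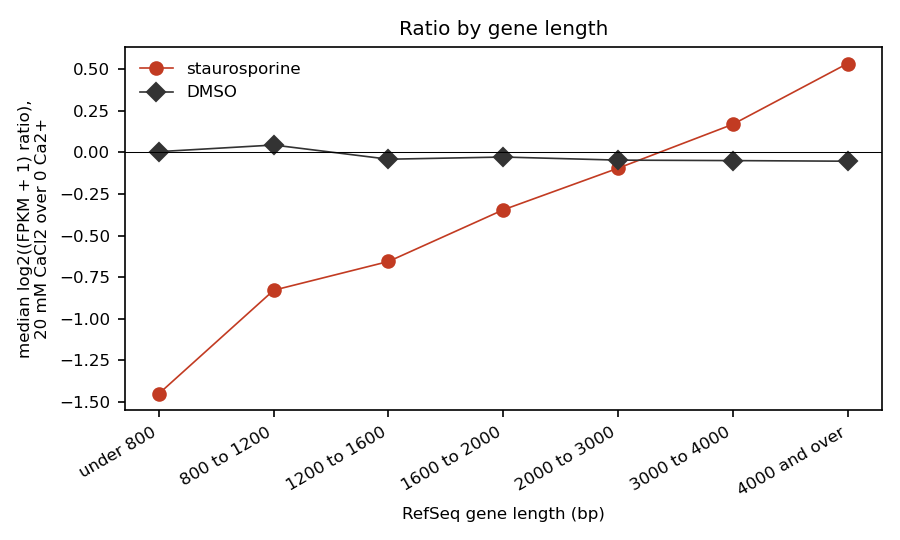
Median log2((FPKM + 1) ratio) of 20 mM CaCl2 over 0 Ca2+ in 7 classes of RefSeq gene length, with staurosporine (red circles) and with DMSO (black diamonds). The staurosporine medians run from -1.45 in the shortest class to 0.53 in the longest, and the DMSO medians stay between -0.05 and 0.04.

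By level, the genes past the limit with a mean of 10 to 100 FPKM were higher in 23.1% and lower in 25.5% of cases, and those of 1000 FPKM and over in 9.93% and 7.80%. Of the 141 genes in this top class, 0 differed by 2-fold with DMSO. The FPKM values summed to 696047 in 0 Ca2+ and 666121 in 20 mM CaCl2 with staurosporine, and to 953522 and 1001100 in the same media with DMSO. In standard medium the sums were 500315 with staurosporine, the lowest of all libraries, and 940590 with DMSO.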

How the data were processed

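RNA-seq of wild-type Neurospora crassa was taken as deposited, in the authors' tables of FPKM per gene, an expression level that is given with decimal commas and with no read counts. Per the submitters' processing notes, TopHat2 2.0.4, Cufflinks 2.0.2 and Cuffdiff were used. Which genome build served is not given in the sources used here. Further deposited columns that were used are the product name and the status mark of each gene. Depth is unknown and no multiple of a single read could be recovered, since among 341 genes under 0.5 FPKM in both libraries the commonest ratio (0.42) was shared by 8 genes. Each group is 1 library, so there is no replicate error, no interval and no test.

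The 2 staurosporine libraries come from separate tables and were joined on gene ID; whether the tables were normalised together is not given in the sources used here. Both DMSO libraries were joined alike. From the FPKM, log2((FPKM + 1) ratio) was computed with a pseudocount of 1 for genes with a mean of at least 1 FPKM over both libraries, and genes at 1 or more in absolute value were counted. The counting code was checked on simulated pairs with known changes, which does not measure the noise of single libraries. The computation was run in Python 3.11.15 with pandas 2.3.3, numpy 2.4.6 and matplotlib 3.10.9. Gene symbols and lengths came from RefSeq (assembly NC12), which held 9141 of 9691 IDs, and 66 IDs name several loci. Product names are those deposited with the FPKM values. The 39 gene lists follow symbols and product names, and list medians stand beside those of all genes. Named genes are the 15 highest and 15 lowest with a symbol or informative product, the 3 highest and 3 lowest others, up to 4 of each list with the largest absolute ratio, and fixed calcium and drug-resistance genes. The members and lists were chosen with earlier results of these data known, and lists were corrected for annotation errors with values in view. Other pseudocounts, limits, scalings, statuses, IDs and a removal of the gene length trend were tried.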

Additional observations from a re-analysis of the deposited data

Results flagged for a closer look

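Opposite directions with staurosporine and with DMSO picked out the following named genes, past the size limit in both pairs, and a gene list with a median of at least 0.5 in size in both. The difference between the pairs was not tested, and 78 genes in all had opposite calls. The MFS phosphate transporter gene NCU07375 had a log2 ratio of 4.48 with staurosporine and -1.19 with DMSO. The hexose transporter gene NCU01633 (HXT13) had 3.36 and -1.40. The betaine aldehyde dehydrogenase gene NCU00715 had -3.09 and 1.03, and the nitrate transporter gene nit-10 (NCU07205) had -3.14 and 1.19. The carotenoid synthesis list had a median of -1.02 with staurosporine and 0.96 with DMSO. In each case the FPKM values of 1 library a side are all that is behind the sign.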

How the results depend on the processing

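Of the 39 gene lists 33, and of the 187 named genes 167, stayed on their side of the size limit under every alternative that gave them a value; 159 of the 187 genes had one under all 9. Inside the limit, 13 list medians changed sign under some alternative, 6 of them with the length trend removed, among them both cytosolic ribosomal protein lists. The cell wall building median passed 1 with a pseudocount of 0.1 (1.02), centred ratios (1.02), rescaled FPKM (1.05) and status OK genes (1.05). Sphingolipid synthesis was at 0.78 with a pseudocount of 5 and at 0.69 with a mean of at least 10 FPKM, and the calcium pump list was at 0.83 with a pseudocount of 5. Carotenoid synthesis was at -0.90 with a pseudocount of 5, -0.98 centred and -0.97 rescaled. With the gene length trend removed, an alternative chosen after seeing the data, mitochondrial ribosomal proteins stood at 1.12, complex I at 1.096, and the S30 gene NCU06048 reversed to 0.081. The genes lower with staurosporine numbered 1220 with a pseudocount of 5 and 1135 with a mean of at least 10 FPKM, where fewer genes enter. At a log2 ratio of at least 2 there were 618 higher and 700 lower. Alternatives for the DMSO pair were also chosen after seeing the data. Its counts were 204 higher and 129 lower with a pseudocount of 5, 204 and 152 with a mean of at least 10 FPKM, and 75 and 41 at a log2 ratio of at least 2. Genes past the limit in both pairs then numbered 170, 169 and 60 in the same direction and 28, 39 and 7 in opposite ones, and 118 opposite with a pseudocount of 0.1. The cause of the list and gene differences was not tested. No paired analysis was possible because each group is 1 library and the labels give no replicate numbers. Without counts the depth cannot be known, and with no replicates no ratio here has a measured error.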
